A study of Mus musculus with 3 samples.

Results

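The genes described here are 10 receptors, bridging ligands, adaptors and lysosomal proteins of phagocytosis and clearance, chosen by name from the 31053 genes of the count tables: Mertk, Axl, Gas6, Pros1, Trem2, Tyrobp, Megf10, Gulp1, Gpnmb and Cd68. Each symbol matched 1 row of the tables, and each gene had between 421 (Gpnmb) and 6020 (Mertk) UMIs in the cells kept. They were compared between satellite glial cells (SGCs), which wrap the neuronal cell bodies of the dorsal root ganglion (DRG), and macrophages, in single cells of naïve and nerve-injured mice. The groups were untreated male C57BL/6J mice of 13 weeks, and mice of the same strain, sex and age taken 7 or 14 days after a spared nerve injury (SNI) of both sides. Each group was a single 10x 3′ library from the 8 L3 and L4 DRGs of 2 pooled mice, so the mice of a library cannot be told apart and no condition had a replicate. Whole ganglia were dissociated without a sort. Sex, age and injury are given as the sample labels state them, whereas the methods of the study name younger female mice, and its text gives both a sciatic nerve ligation and SNI for the single cells.

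Clearance of dying cells and debris works in steps. The TAM receptors Tyro3, Axl and Mertk do not touch the dying cell themselves but bind Gas6 or Protein S (Pros1), which in turn hold phosphatidylserine on its surface. Trem2, a lipid-sensing receptor of macrophages and microglia, has no signalling tail of its own and signals through the ITAM adaptor Tyrobp (DAP12). Megf10 is a glial engulfment receptor whose cytoplasmic tail, like that of Lrp1, is bound by the adaptor Gulp1. Cd68 is a lysosomal membrane glycoprotein used as a marker of phagocytes, and Gpnmb is a transmembrane glycoprotein of lysosomes and melanosomes.

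A cell entered with 500 or more genes and no more than 20% of UMIs from mitochondrial genes, which left 9662 of 11937 barcodes. Their median depth was 3072 (naïve), 4010.5 (7 days) and 4199 UMIs (14 days). A cell was placed in the class whose fixed marker genes were highest on average, if at least 3 of them had a UMI, and none of the 10 genes was such a marker. Values below are given in the order naïve, 7 days, 14 days. The gates found 837, 547 and 768 SGCs and 66, 212 and 253 macrophages. Non-myelinating Schwann cells, whose values are given below, were less firmly gated. They numbered 99, 62 and 113, of which 52, 31 and 48 had exactly 3 markers. Clusters put 74, 52 and 85 of them in the same class. Macrophages were 2.09%, 7.90% and 6.61% of the cells kept. The 8 macrophage markers summed to between 17253 and 19278 CPM (UMIs per 1000000 UMIs of the class) in the macrophages and to 3.50, 13.9 and 20.5 CPM in the SGCs, where 2 of them were at 0 in the naïve library. The 6 SGC markers summed to between 11631 and 13176 CPM in the SGCs and to between 152 and 220 CPM in the macrophages. Cells that passed both gates, 2, 5 and 15 in number, were left out of both classes, and at most 6 barcodes were shared between any 2 libraries.

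The clearance genes divided between the classes. Trem2, Tyrobp and Cd68 lay mostly in macrophages, and Megf10 and Gulp1 were genes of the glia. Gas6 was higher in macrophages than in SGCs, but other classes held much of it. Mertk was at a like level in SGCs and macrophages. Of the 10 genes, 3 were higher in SGCs and 6 were higher in macrophages at an adjusted p under 0.05, in edgeR's quasi-likelihood test on the class sums of the 3 libraries with the library as a block. The median log2 difference of the 10 was -1.29 against 0.18 over all genes tested. Over all 11538 genes tested, 62.8% were called, 36.6% as higher in SGCs and 26.2% as higher in macrophages, so a call by itself was common. The libraries are the replicates of this test, each from another condition, and it tests a class difference they share, not an effect of injury. The plot of levels by class gives the values of all 10 genes in each class of at least 20 cells.

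**Figure D1:**
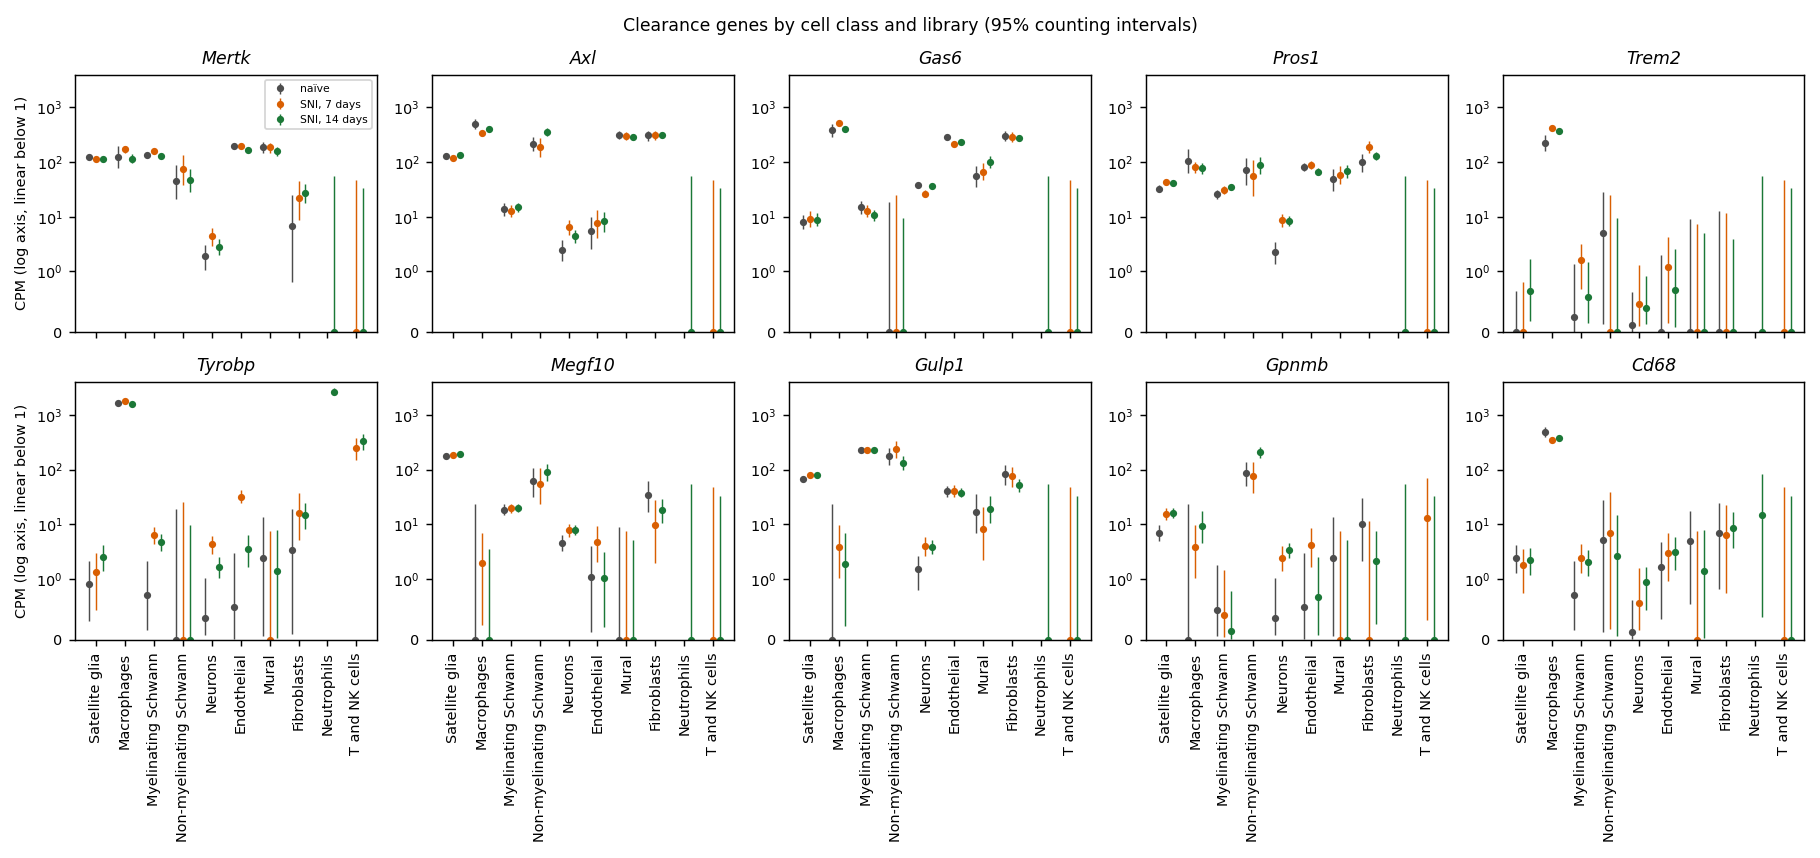
Level of the 10 clearance genes (y axis, CPM on a log axis that is linear below 1) in each cell class with at least 20 cells (x axis), with 1 point per library and bars for exact Poisson 95% intervals. Trem2 and Cd68 stand out in macrophages alone, Megf10 is highest in satellite glia, and Mertk lies between 112 and 171 CPM in satellite glia and macrophages of every library.

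The ligand Gas6 was at 383 CPM in naïve macrophages, 529 CPM at 7 days and 397 CPM at 14 days. In SGCs it was at 8.10, 9.21 and 8.89 CPM. The ranges of the 2 classes lay far apart in every library, by 47.3-fold, 57.4-fold and 44.7-fold in favour of macrophages, and the fitted difference was -5.60 ± 0.17 (log2 SGCs over macrophages ± SE, adjusted p = 2.7e-225 in edgeR). Macrophages were not the only source: endothelial cells held 284, 217 and 234 CPM of Gas6 and fibroblasts 298, 288 and 280 CPM. Of all Gas6 UMIs in the cells kept, 5.46%, 41.7% and 20.7% lay in macrophages. Endothelial cells held 46.6%, 27.7% and 33.0% of them and neurons 28.5%, 13.1% and 22.7%. Non-myelinating Schwann cells held no Gas6 UMI in any library, with upper limits of 15.2, 20.7 and 7.83 CPM from a count of 3. Gas6 shares exonic sequence with Tmem255b on the opposite strand, and the 3′ chemistry keeps the strand of a read.

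The second bridging ligand, Pros1, also known as a plasma anticoagulant cofactor, was spread more evenly. It was at 107, 79.9 and 76.5 CPM in macrophages and at 32.8, 43.3 and 41.3 CPM in SGCs, with macrophages above SGCs in every library. The fitted difference was -0.98 ± 0.17 (adjusted p = 4.9e-08, edgeR). Fibroblasts held 99.2, 193 and 130 CPM, and endothelial cells 82.7, 87.4 and 66.6 CPM. Under a stricter filter (1000 genes or more, mitochondrial share of 10% or less), where only 144, 19 and 18 cells were SGCs, the difference in Pros1 was -0.66 with an adjusted p of 0.164.

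Among the receptors for these ligands, Mertk was at 123, 114 and 112 CPM in SGCs and at 126, 171 and 116 CPM in macrophages. Only at 7 days was macrophage Mertk above the SGC level beyond counting error, by 1.5-fold (1.26 to 1.79). The class difference was -0.26 ± 0.14 and was not called (adjusted p = 0.108, edgeR). Without the naïve library it was -0.44 with an adjusted p of 0.0104, and without any filter on cells -0.42 with an adjusted p of 0.00669. Other classes reached the same range or more, since Mertk was at 194, 200 and 165 CPM in endothelial cells, 187, 185 and 158 CPM in mural cells and 134, 158 and 127 CPM in myelinating Schwann cells. Of the 8 larger classes, neurons were lowest at 1.88, 4.43 and 2.84 CPM. The endothelial and mural levels of a library overlapped in their counting intervals.

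Axl was present in both classes and higher in macrophages. It was at 503, 340 and 399 CPM there against 129, 119 and 137 CPM in SGCs, with no overlap between the classes, and the fitted difference was -1.61 ± 0.14 (adjusted p = 6.4e-30, edgeR). Fibroblasts, at 308, 307 and 318 CPM, and mural cells, at 319, 297 and 288 CPM, and non-myelinating Schwann cells, at 218, 187 and 363 CPM, also held more than SGCs. Because SGCs outnumbered macrophages, they still held 59.7%, 41.1% and 38.0% of all Axl UMIs in the cells kept, against 6.82%, 27.3% and 19.7% in macrophages.

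Trem2 was a gene of the macrophages. They held 226, 421 and 364 CPM, whereas SGCs held 0, 0 and 4 UMIs. Over the 3 libraries together the ratio was 1508-fold in favour of macrophages, with a counting interval from 587-fold to 5546-fold. Of all Trem2 UMIs in the cells kept, 90%, 95% and 90.4% lay in macrophages. A Trem2 UMI was found in 31.8%, 66.5% and 54.5% of macrophages, at median depths of 2097, 4373 and 3600 UMIs, and in 0%, 0% and 0.521% of SGCs, whose median depths were 4904, 6698 and 6439.5 UMIs. The 0 of 837 naïve SGCs allow a share of cells with a UMI of up to 0.358%, taken as 3 of 837, which does not limit the share of cells that express the gene.

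Its adaptor Tyrobp was at 1622, 1784 and 1564 CPM in macrophages and at 0.920, 1.35 and 2.52 CPM in SGCs, a ratio of 1017-fold over the libraries together (693 to 1560). Tyrobp reached cells that Trem2 did not. Neutrophils, numerous enough only at 14 days, held 2665 CPM of Tyrobp and no Trem2 UMI, and T and NK cells held 243 CPM at 7 days and 327 CPM at 14 days, also without Trem2. Macrophages held 54.4%, 81.4% and 73.6% of Tyrobp UMIs, a smaller share than of Trem2 in every library. Cd68 followed the macrophages as well, at 490, 349 and 379 CPM against 2.39, 1.8 and 2.18 CPM in SGCs, and was 174-fold higher in them over the libraries together (123 to 253).

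Across the 24 sums of 8 classes in 3 libraries, Trem2, Tyrobp and Cd68 had the most alike profiles among the 10 genes. Pearson's r on log2 CPM was 0.92 for Trem2 with Cd68, 0.91 for Tyrobp with Cd68 and 0.90 for Trem2 with Tyrobp, where the points share classes and libraries and give no test. The sequences just before the starts of Trem2 and Cd68 are shown because these had the narrowest class profile of the 8 members whose windows were used. They are the 250 bases before the RefSeq start in GRCm38.p6 (the mm10 assembly), 5′ to 3′ on the strand of the gene, and neither window overlaps an annotated exon. Capitals mark TGANTCA, a looser form of the AP-1 site TGAGTCA (reverse complement TGACTCA), and GAGGAA or its reverse complement TTCCTC, the PU-box.
Trem2, chr17:48346151-48346400, plus strand: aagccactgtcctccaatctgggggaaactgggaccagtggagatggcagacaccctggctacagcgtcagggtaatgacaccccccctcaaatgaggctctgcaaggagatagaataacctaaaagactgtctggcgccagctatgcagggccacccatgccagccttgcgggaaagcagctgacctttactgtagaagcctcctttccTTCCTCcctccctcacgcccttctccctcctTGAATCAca
Cd68, chr11:69666171-69666420, minus strand: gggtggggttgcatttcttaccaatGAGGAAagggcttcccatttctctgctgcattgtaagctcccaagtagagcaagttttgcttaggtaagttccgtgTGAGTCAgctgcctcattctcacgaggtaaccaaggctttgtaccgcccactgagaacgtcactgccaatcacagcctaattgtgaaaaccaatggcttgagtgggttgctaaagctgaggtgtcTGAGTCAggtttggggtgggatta
Trem2 held 1 match to the looser form, TGAATCA, from 9 to 3 bases before the start, and 1 PU-box. That match is not the AP-1 site itself. Cd68 held 2 matches, both TGAGTCA, which begin 149 and 24 bases before the start, and 1 PU-box. Of 32851 promoters of the same length, 6.75% held the TGANTCA letters, 23.3% the PU-box letters and 1.55% both, on either strand. The share with TGAGTCA alone was not computed. Of the other 6 members whose windows were used (Mertk, Axl, Gas6, Pros1, Gulp1 and Gpnmb), 0 held the TGANTCA letters and 1, Axl, held a PU-box. The M-box, CATGTG with its reverse complement CACATG, was in 0 of the 8 windows and in 12.3% of all promoters. A match to these letters is a description of the window and not a binding site.

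**Figure D2:**
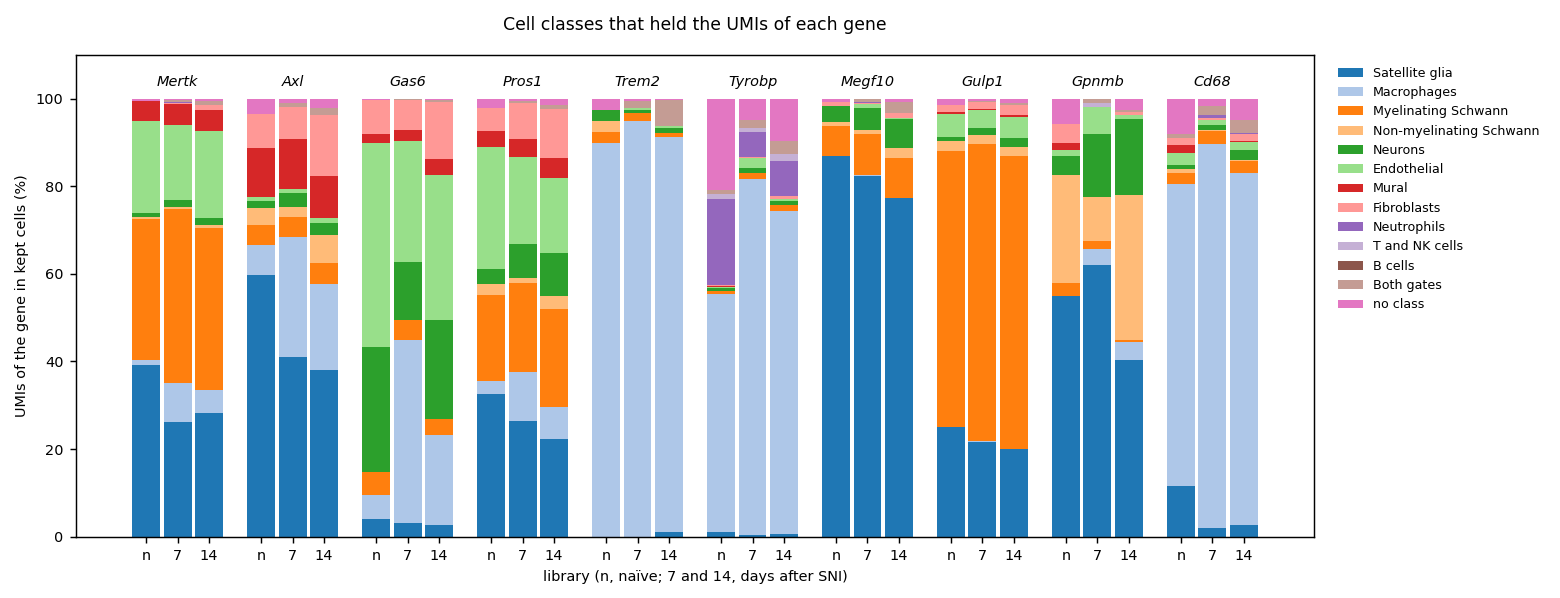
Share of each gene's UMIs (y axis, percent of the UMIs in the cells kept) by cell class (colours), with 1 bar per library (x axis; n, naïve library; 7 and 14, days after injury). Trem2 lies in macrophages by at least 90% and Megf10 in satellite glia by at least 77.3%, whereas the UMIs of Mertk, Axl, Gas6 and Pros1 are spread over many classes.

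On the glial side, Megf10 had the clearest class. SGCs held 179, 185 and 194 CPM of this engulfment receptor, and the 531 macrophages held 2 UMIs in all, both at 7 days. Over the libraries together SGCs were higher by 210-fold, with a counting interval from 58.1-fold to 1735-fold, and the fitted difference was 7.69 ± 0.37 (adjusted p = 9.1e-94, edgeR). Of all Megf10 UMIs, 86.9%, 82.4% and 77.3% lay in SGCs. Non-myelinating Schwann cells came next, with 60.9, 55.3 and 88.8 CPM, and myelinating Schwann cells held 18.5, 19.4 and 20 CPM. A Megf10 UMI was seen in 57.2%, 65.6% and 65.6% of SGCs, and in 28.7%, 28.6% and 30.1% of the 772, 537 and 739 SGCs with at least 2000 UMIs after thinning to that number. The unthinned shares compare with 0%, 0.943% and 0% of macrophages.

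Gulp1, the adaptor that binds Megf10, was glial but not centred on SGCs. SGCs held 67.6, 80.4 and 78.2 CPM against 6 UMIs in all macrophages (0, 3.85 and 1.89 CPM), a fitted difference of 4.89 ± 0.35 (adjusted p = 1.6e-43, edgeR). Myelinating Schwann cells held more, at 225, 232 and 226 CPM, and non-myelinating Schwann cells 178, 235 and 133 CPM. The counting intervals of SGCs and myelinating Schwann cells did not overlap in any library. Thus 63.0%, 68.0% and 66.8% of Gulp1 UMIs lay in myelinating Schwann cells and 25.1%, 21.5% and 20% in SGCs.

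Gpnmb had the fewest UMIs of the 10 genes and was highest in non-myelinating Schwann cells, at 86.3, 76.0 and 209 CPM. In SGCs it was at 6.99, 15.5 and 16.3 CPM, and in macrophages at 0, 3.85 and 9.44 CPM. The 0 of the naïve macrophages allows up to 18.9 CPM, which is above the naïve SGC level. All 10 UMIs at 14 days came from 1 of 253 cells, and 3 of the 4 at 7 days were in 1 cell and gone once Scrublet doublets were left out, which left 1. SGCs were called higher by 1.33 ± 0.41 (adjusted p = 0.0025, edgeR). That call was lost with DESeq2 (1.47, adjusted p = 0.106), without the library block (1.08, adjusted p = 0.0875) and without the 7-day library (0.77, adjusted p = 0.291). The sequence before its start, the most AT-rich of the 8 member windows at 47.2% G and C, held none of the motifs above and is shown beside those of Trem2 and Cd68 as the contrast.
Gpnmb, chr6:49036268-49036517, plus strand: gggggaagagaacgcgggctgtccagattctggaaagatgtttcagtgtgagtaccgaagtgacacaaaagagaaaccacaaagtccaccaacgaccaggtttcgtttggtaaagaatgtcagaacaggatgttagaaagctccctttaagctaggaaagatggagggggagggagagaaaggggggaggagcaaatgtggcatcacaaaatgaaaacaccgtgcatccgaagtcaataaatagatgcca
The median G and C content over all promoters was 52.4%, and the other 7 windows ranged from 49.2% in Cd68 to 64.4% in Pros1.

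The other genes of the clearance pathway, a list of 61, were split along the same line. Of the 56 tested, 9 were higher in SGCs and 41 in macrophages, where 36.6% and 26.2% of all genes were, with a median log2 difference of -2.61 against 0.18 over all genes tested, and the median was the same with genes at 0 set to their bound. Among 18 engulfment receptors, 14 were higher in macrophages and 4 in SGCs. The Fc receptor Fcgr1 (-10.69), the complement receptor subunit Itgam (-10.60) and the UDP receptor P2ry6 (-10.59) were the lowest in SGCs. All 5 genes that the list groups as brakes of phagocytosis (Cd47, Sirpa, Cd22, Cd24a and Siglech) were called higher in macrophages. The differences were uneven, with Cd47 at -0.53 and Cd24a at -0.54 against Sirpa at -3.37. Whether each acts as a brake in these cells was not tested.

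The pathway genes highest in SGCs relative to macrophages were Adgrb1 (BAI1), a phosphatidylserine receptor, the TAM receptor Tyro3 and the integrin subunit Itgb3. Adgrb1 was at 44.0, 41.1 and 38.3 CPM in SGCs and had no UMI in the macrophages, which makes it at least 30.9-fold higher in SGCs against a limit of 3 UMIs over the macrophages together. Tyro3 was at 46.0, 54.8 and 52.4 CPM in SGCs with 1 macrophage UMI in all, a ratio of 115-fold (20.5 to 4540). Itgb3, which pairs with Itgav to bind Mfge8 on dying cells, was at 230, 197 and 174 CPM in SGCs with 5 macrophage UMIs, a ratio of 90.1-fold (38.6 to 278). The other 6 called higher in SGCs were Megf11 (4.92), Scarb1 (1.49), Itgav (1.47), Nr1h3 (1.42), Dock1 (1.32) and Abcg1 (0.55), named after their values were seen. Of the 12 adaptors and cytoskeletal genes 8 were higher in macrophages and 1 in SGCs. Of the 17 genes of degradation and lipid handling 13 and 2 were, where 26.2% and 36.6% of all genes were. The last group of the list, bridging and TAM genes with the Megf10 relative Megf11, had 4 tested genes, of which Tyro3 and Megf11 were higher in SGCs, Mfge8 was called higher in macrophages close to the threshold (-0.60, adjusted p = 0.049999 in edgeR), and Anxa5 was not called (-0.25).

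**Figure D3:**
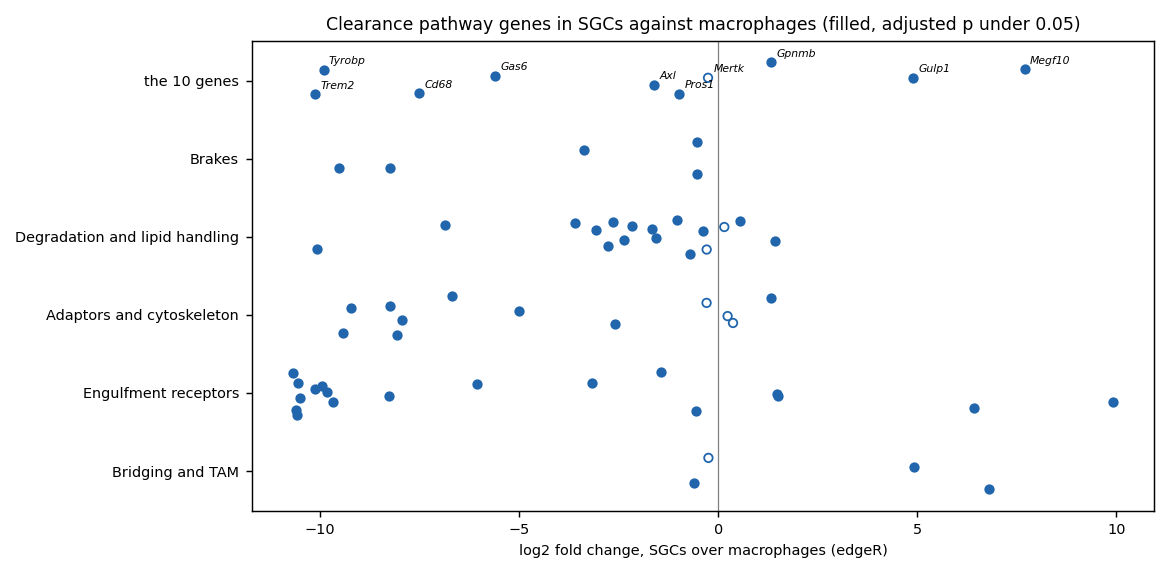
Log2 fold change of satellite glia over macrophages (x axis, edgeR) for the tested genes of each group of the pathway list and for the 10 genes (rows, with a small vertical offset), filled where the adjusted p was under 0.05. The engulfment receptors have a median of -8.98, and Megf10 (7.69), Gulp1 (4.89) and Gpnmb (1.33) lie to the right of 0.

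Between conditions there was 1 library each, so no test was possible, and the intervals of CPM, shares and ratios cover counting error only. A gene counted as apart when its CPM differed at least 2-fold after a pseudocount of 1 CPM, with at least 20 UMIs in both libraries together. Both injured libraries were set against the same naïve library and are not independent. In macrophages, 7 of the 10 genes had enough UMIs, and 0 were past 2-fold in either direction at 7 or at 14 days. Of all genes with enough UMIs, 10.4% were past 2-fold higher and 4.33% lower at 7 days, and 11.4% and 4.71% at 14 days, in a comparison that rests on 66 naïve cells with 159091 UMIs. The plot of ratios to the naïve library shows all genes with enough UMIs in both classes.

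**Figure D4:**
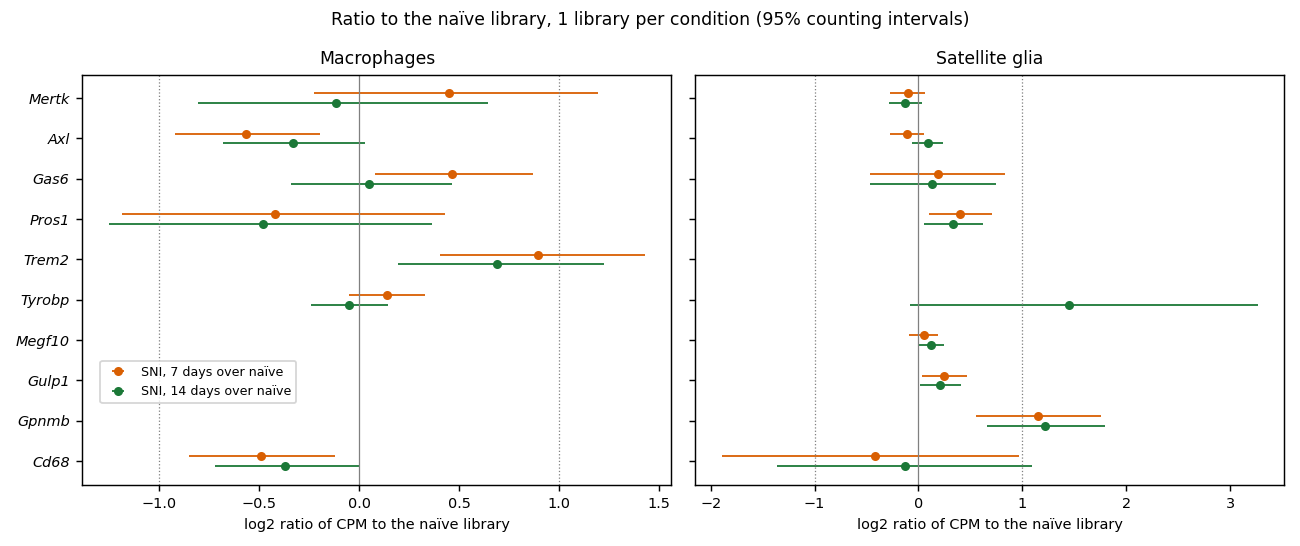
Log2 ratio of CPM to the naïve library (x axis) for each gene with at least 20 UMIs (rows) in macrophages and satellite glia, at 7 and 14 days after injury, with bars for exact 95% counting intervals and dotted lines at 2-fold. Trem2 in macrophages (0.89 and 0.69) and Gpnmb in satellite glia (1.15 and 1.22) lie to the right of 0 with their intervals at both times.

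Trem2 came nearest to 2-fold in macrophages. Its level of 226 CPM in the naïve library compared with 421 CPM at 7 days, 1.86 times as high (1.32 to 2.69), and with 364 CPM at 14 days, 1.61 times as high (1.14 to 2.33). Thinning to 2000 UMIs left out the shallower cells and kept 36 of 66, 175 of 212 and 201 of 253 macrophages, of which 25.8%, 51.0% and 42.9% had a Trem2 UMI. With Leiden clusters in place of the gates, the 7-day ratio was 1.24 on the log2 scale and past 2-fold. Those clusters held 82, 227 and 292 cells, more than the gates, and in the larger of them alone Trem2 was at 226, 451 and 390 CPM. Tyrobp differed little, by 1.10 times (0.97 to 1.26) and 0.96 times (0.85 to 1.10).

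Cd68 and Axl were somewhat lower per macrophage UMI in the injured libraries. Cd68 was 0.71 times (0.56 to 0.92) the naïve level at 7 days and 0.77 times (0.61 to 0.999) at 14 days. Axl was 0.68 times (0.53 to 0.87) and 0.79 times (0.62 to 1.02). Gas6 was higher at 7 days, by 1.38 times (1.06 to 1.83), and at 1.04 times (0.79 to 1.38) at 14 days. The intervals of Mertk and Pros1 included 1 at both times, and 3 genes, Megf10, Gulp1 and Gpnmb, had too few UMIs. Over all kept cells together, where the number of macrophages counts too, Trem2 was at 1.88, 23.1 and 13.2 CPM, Tyrobp at 22.3, 114 and 69.6 CPM and Cd68 at 5.32, 20.7 and 15.5 CPM.

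In SGCs, 1 of the 8 genes with enough UMIs at 7 days was past 2-fold higher, and 1 of 9 at 14 days. Over all genes, 0.971% were past 2-fold higher at 7 days and 1.17% at 14 days, and 0.355% and 0.544% were past 2-fold lower, where 0 of the 10 genes stood. The gene was Gpnmb both times. From 38 UMIs in 837 naïve cells (6.99 CPM) it compared with 69 UMIs in 547 cells at 7 days, 2.21 times as high (1.47 to 3.38), and with 97 UMIs in 768 cells at 14 days, 2.33 times as high (1.58 to 3.48). A Gpnmb UMI was seen in 4.18%, 8.59% and 9.77% of SGCs, and in 1.48%, 3.09% and 3.09% after thinning. Macrophages with a Gpnmb UMI were 0.943% at 7 days and 0.395% at 14 days.

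The difference in Gpnmb was seen in both large SGC clusters but not in every smaller one. In the cluster led by Ednrb and Apoe it was at 4.94, 8.91 and 12.9 CPM, and in the cluster led by Fabp7 at 8.41, 17.0 and 20.3 CPM. A smaller cluster led by Ednrb and Sox4 was at 11.9, 5.16 and 54.2 CPM, so it was high at 14 days alone. A cluster led by interferon-induced genes (Ifi27l2a, Isg15) was at 17.4, 59.7 and 7.73 CPM and had only 27 and 24 cells in the injured libraries. Non-myelinating Schwann cells were past 2-fold at 14 days only, at 2.42 times (1.42 to 4.36) the naïve level, with 23 of 80 UMIs in 1 cell, where 5.47% of all genes were past 2-fold higher. The SGC calls stood close to the threshold, at log2 ratios of 1.04 and 1.11 after the pseudocount of 1 CPM. Neither time was past 2-fold with a pseudocount of 5 CPM or without a cell filter. With the 1 CPM pseudocount, the 14-day log2 ratio was 0.94 without the SGCs that held a macrophage marker UMI. With each cell weighted equally it was 0.99. The 18 SGCs that the strict filter left at 14 days held 0 Gpnmb UMIs, too few cells to bear on it.

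The remaining SGC ratios were small except that of Tyrobp at 14 days. Megf10 was 1.03 times (0.94 to 1.14) and 1.09 times (0.996 to 1.18) the naïve level, Mertk 0.93 times (0.83 to 1.05) and 0.92 times (0.82 to 1.02), and Axl 0.93 times (0.83 to 1.04) and 1.06 times (0.96 to 1.18). Gulp1, at 1.19 times (1.03 to 1.38) and 1.16 times (1.007 to 1.33), and Pros1, at 1.32 times (1.07 to 1.63) and 1.26 times (1.03 to 1.54), were a little higher at both times beyond counting error. Trem2 had too few UMIs for a ratio. Tyrobp in SGCs was at 5, 6 and 15 UMIs, where the summed macrophage markers were at 3.50, 13.9 and 20.5 CPM. After the pseudocount of 1 CPM its 14-day log2 ratio was 0.87. Without the SGCs that held a macrophage marker UMI it was 1.06, from too few UMIs to be counted. The part of the markers in it was not tested beyond this.

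Outside these classes, Pros1 in neurons was past 2-fold in both injured libraries, at 2.23, 8.55 and 8.43 CPM, 3.83 times (2.24 to 6.82) and 3.78 times (2.30 to 6.52) the naïve level. Of all genes in neurons, 2.58% and 3.88% were past 2-fold higher. The neurons of the libraries differed in depth, with medians of 63909, 2800 and 80010 UMIs, and the part of this in the Pros1 ratio was not tested. Tyrobp in myelinating Schwann cells, at 0.731, 6.35 and 4.78 CPM, was past 2-fold too, against 0.636% and 1.02% of all genes. Its UMIs there were 3, 31 and 33. The 8 macrophage markers summed there to 7.07, 50.6 and 43.0 CPM, and their part was not tested. In endothelial cells at 7 days, where 1.61% of genes were past 2-fold higher, Tyrobp was too, with 51 of its 54 UMIs in 1 cell.

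Other calls in these classes are given by their UMIs in the naïve and the injured library. In neurons these were Axl (21 and 42 UMIs) and Tyrobp (3 and 28) at 7 days and Gpnmb (3 and 42) at 14 days. In fibroblasts Mertk went from 2 UMIs to 26 at 14 days, where 5.98% of genes were past 2-fold higher.

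Of the pathway list, 3 genes were past 2-fold higher in macrophages of both injured libraries and 2 were lower. The lysosomal protease Ctsd was at 767, 1746 and 2205 CPM, a ratio of 2.28 (1.90 to 2.76) and 2.88 (2.40 to 3.48). The cholesterol exporter Abcg1 was at 18.9, 72.2 and 82.1 CPM, and the scavenger receptor Scarb1 at 6.29, 20.2 and 32.1 CPM, from 3 and 1 naïve UMIs. The fatty acid receptor Cd36, at 295, 144 and 145 CPM, and the lipase Lpl, at 101, 44.3 and 23.6 CPM, were lower. In SGCs the ITAM adaptor Fcer1g was past 2-fold both times, from 7 UMIs to 20 and 27, beside the same macrophage marker sums. As a count, 4 of 49 list genes were past 2-fold higher in macrophages at 7 days and 4 of 50 at 14 days, against the 10.4% and 11.4% of all genes given above. Past 2-fold lower were 3 of 49 and 2 of 50, against 4.33% and 4.71% of all genes.

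Within the macrophages, Gas6 and Mertk were lower in cells with a UMI of Ccr2 and Axl was not. Cells with Ccr2, the chemokine receptor of monocytes that enter tissue, were 16 of 66, 74 of 212 and 75 of 253. Gas6 was at 180, 197 and 131 CPM in these and at 462, 760 and 538 CPM in macrophages without Ccr2. The intervals of the pair did not overlap at 7 or 14 days, and overlapped slightly in the naïve library (77.8 to 355 against 346 to 605). Mertk was lower with Ccr2 as well, at 90, 113 and 71 CPM against 140, 212 and 140 CPM, with intervals apart at 7 and 14 days. Pros1 was at 90, 58.6 and 43.7 CPM with and 113, 94.8 and 93.8 CPM without, with intervals apart at 14 days only. Axl was at 495, 387 and 467 CPM with and 506, 307 and 364 CPM without. Trem2 was at 248, 441 and 336 CPM with and 218, 407 and 379 CPM without, and its intervals overlapped in each library, as did those of Tyrobp, Cd68 and Axl. The cells with Ccr2 were the deeper ones in each library, with medians of 2631.5, 5172.5 and 4184 UMIs against 2097, 3867.5 and 3373.5. The split rests on 1 gene in sparse counts, so cells without a Ccr2 UMI are not cells without Ccr2.

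**Figure D5:**
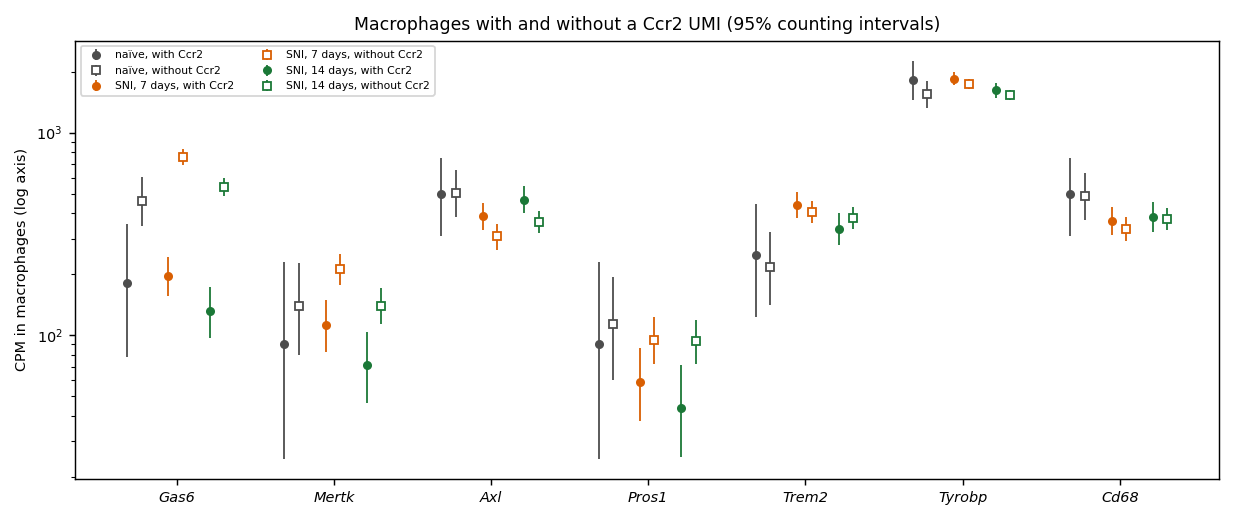
CPM (y axis, log axis) of 7 clearance genes in macrophages with (filled circles) and without (open squares) a Ccr2 UMI, by library (colours), with exact Poisson 95% intervals. Gas6 lies between 131 and 197 CPM with Ccr2 and between 462 and 760 CPM without, whereas Trem2, Tyrobp and Cd68 lie close together.

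Macrophages with a UMI of the mannose receptor Mrc1 held 443, 575 and 415 CPM of Gas6, and the 14, 15 and 17 without it 77.1, 11.6 and 145 CPM. Trem2 again did not differ beyond counting error in this split, at 225, 431 and 363 CPM with Mrc1 and 231, 313 and 377 CPM without.

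SGCs too were uneven. In the cluster led by Ednrb and Apoe, Mertk was at 141, 151 and 148 CPM, and in the cluster led by Fabp7 at 91.6, 88.6 and 89.0 CPM. Megf10 had the opposite order, at 142, 168 and 163 CPM in the first and 209, 212 and 231 CPM in the second. The counting intervals of the clusters did not overlap in any library for either gene. A smaller cluster led by Ednrb and Sox4 stood apart at 14 days, with 82 CPM of Megf10 and 298 CPM of Axl. The intervals of Axl overlapped between the large clusters, at 117, 116 and 132 CPM against 133, 120 and 140 CPM.

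The genes most like each member over the 24 class sums, among 12801 genes with at least 200 UMIs, are given next, with the sums sharing classes and libraries. Trem2 was most like Bin2 (r = 0.99), Ncf4 and Myo1f (both 0.98), Tyrobp like Clec10a, Ptprc and Stap1 (all 0.97), and Cd68 like Grn, H2-Aa (both 0.96) and Cd48 (0.95). Megf10 was most like Lpar1 (0.96), Lrrc4b and Ttyh1 (both 0.94), and Gulp1 like Arhgef10, Ankrd28 and Sparc (all 0.94). For the TAM genes these were Stard8 (0.93), Tmpo (0.91) and Ep300 (0.90) for Mertk, Cdk6 (0.91), Cox6b2 and Plxnb2 (both 0.90) for Axl, Lrrk1 (0.94), Irak2 (0.94) and Fam43a (0.91) for Gas6, and Ifitm2 (0.94), Phip and 2810474O19Rik (both 0.93) for Pros1. Gpnmb had the weakest likeness, to Scarb2 (0.86), Rxrg and Hunk (both 0.81). Gas6 and Megf10 were the most opposed pair of members, with r = -0.69.

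The members have these places in GRCm38, from GENCODE vM21, and all are protein-coding. Mertk lies on chromosome 2 from 128698956 to 128802894 (plus strand), Axl on chromosome 7 from 25757273 to 25788705 (minus) and Gas6 on chromosome 8 from 13465374 to 13494490 (minus). Pros1 lies on chromosome 16 from 62854307 to 62929346 (plus), Trem2 on chromosome 17 from 48346401 to 48354147 (plus) and Tyrobp on chromosome 7 from 30413760 to 30417585 (plus). Gulp1 lies on chromosome 1 from 44551511 to 44796838 (plus), Gpnmb on chromosome 6 from 49036546 to 49070929 (plus) and Cd68 on chromosome 11 from 69664213 to 69666153 (minus). Megf10 lies on chromosome 18 from 57133090 to 57297467 (plus).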

How the data were processed

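Single cells of dissociated L3 and L4 DRGs were measured in 3 libraries, 1 each for naïve mice and for mice 7 and 14 days after SNI. The authors deposited whole UMI counts per gene and cell, limited to called cells, and the submitters' processing notes name Cell Ranger 3.0.2 and mm10. Whether the libraries were brought to one depth is not given in the sources used here. They held 23107376, 22343246 and 36550911 UMIs. Marker gates, CPM, thinning to 2000 UMIs, and exact Poisson, Clopper-Pearson and conditional binomial intervals at 95% were computed with scipy 1.17.1, scanpy 1.11.5 and leidenalg 0.10.2. Scrublet called 28, 24 and 20 doublets, which stayed in and were removed in an alternative.

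SGCs and macrophages were compared with edgeR 4.0.16 (R 4.3.3) on 6 class sums, with TMM, filterByExpr, the library as a block and Benjamini-Hochberg adjustment over all genes. The SE is the fold change divided by the root of the F statistic. On simulated counts with 200 genes changed 4-fold, 179 were called with 5 others among 11487 genes. The other genes were simulated without a class difference, at a dispersion of 0.1. In the data 62.8% of genes were called, so that run does not give the error of the class test. The rule for a 2-fold difference was run on simulated macrophages, 7 days over naïve, with 200 genes of at least 20 expected UMIs changed 4-fold. It found 199 of the 200, with 2 of 1077 others. That run held 1277 genes, where the rule as used covered 7005, so it does not give the error of the rule for sparser genes. Genes at 0 in every library of a class have a bound from 3 UMIs over the class.

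The members and lists were chosen with earlier results of these data known. The text names all 10 members, the 3 highest and 3 lowest called genes of the pathway list, its genes past 2-fold both times, and the 3 genes most like each member, where others were named after their values were seen. Alternatives covered the test (DESeq2 1.42.0), scaling, filters, block, libraries, doublets, classes, pseudocount and depth. RefSeq promoters were used for 8 members: Tyrobp had no entry, and Megf10, on chromosome 18, was left out.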

Additional observations from a re-analysis of the deposited data

Results flagged for a closer look

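Pros1 was the member whose ratio to the naïve library had opposite signs in the 2 classes at both times. In SGCs it was higher, by 0.40 at 7 days and 0.33 at 14 days on the log2 scale, and in macrophages it was -0.42 and -0.48. Every injured library thus lay on one side in SGCs and on the other in macrophages, but the difference between the classes was not tested, both ratios share the naïve library, and the macrophage intervals (-1.18 to 0.43 and -1.25 to 0.36) include 0.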

How the results depend on the processing

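Each condition was 1 library, so counting error was the only error available for the effect of injury, and 66 naïve macrophages set the precision of every macrophage ratio. Of the class differences of single members 133 of 139 recomputed values kept their direction and side of the threshold, and of the injury ratios 258 of 272 moved within their error. The strict cell filter (at least 1000 genes, at most 10% mitochondrial UMIs) left 144, 19 and 18 SGCs, and called 3041 genes between the classes against 7248. It left 35, 128 and 141 macrophages. Without a cell filter there were 1021, 756 and 1142 SGCs and 82, 273 and 335 macrophages, against 837, 547 and 768 SGCs and 66, 212 and 253 macrophages in the main setting. The loss thus differed between classes and libraries, and which limit removed the cells was not examined. Leaving out 1 library gave 5263 to 7188 genes and 8 to 10 members called. In macrophages at 7 days Leiden clusters put 1 member past 2-fold higher (Trem2) against 0. In SGCs at 7 days 1 member was past 2-fold higher, and 0 under the strict filter, without a cell filter, with Leiden clusters or with a pseudocount of 5 CPM. Under the strict filter Gpnmb was at a log2 ratio of 1.49, but its 6 naïve and 3 injured UMIs lay under the minimum of 20. At 14 days 1 was, and 0 without a cell filter, without SGCs holding a macrophage marker UMI or with that pseudocount, whereas Leiden clusters gave 2 (Gpnmb and Tyrobp), and with each cell weighted equally the 1 was Tyrobp (1.08) in place of Gpnmb (0.99). Under the strict filter 1 member other than Gpnmb was past 2-fold lower at 14 days. Gpnmb was at -2.91 on the log2 scale with the pseudocount, from 6 naïve UMIs and 0 UMIs in 18 cells, too few to be counted. Apart from the loss of cells or the pseudocount itself, the cause was not tested. No paired analysis was possible because there is 1 library per condition, and the library was already the block of the class test.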

Other observations

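The cells that passed the gates of both SGCs and macrophages were deep, with median depths of 3542.5, 8077 and 12286 UMIs in 2, 5 and 15 cells. At 14 days they were at 213 CPM of Megf10, 144 CPM of Trem2 and 386 CPM of Tyrobp, where SGCs were at 194, 0.671 and 2.52 CPM and macrophages at 0, 364 and 1564 CPM. At 7 days they were at 131, 175 and 962 CPM. The 2 naïve cells held 0 UMIs of Megf10 and 0 of Trem2. Scrublet called 0, 1 and 1 of these cells doublets, and whether the others were doublets was not resolved. They carried 5.85% of all Trem2 UMIs at 14 days.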
